A study of Mus musculus with 12 samples.

Results

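The genes described here are 43 lysosomal genes of the mouse: 12 cathepsins (legumain, a related protease, counted among them), 7 glycosidases, 8 lipid and other hydrolases, 7 membrane proteins, 6 subunits or partners of the proton pump and the 3 transcription factors Mitf, Tfeb and Tfe3. They were taken by name from the 17186 genes that occur in at least 1 of 2 deposited RNA-seq tables. Earlier results of these data were known when they were chosen. All 43 were present in both tables. Of the tables, 1 covered whole liver and 1 covered liver sinusoidal endothelial cells (LSEC), the fenestrated endothelium that lines the liver's blood sinusoids. Each compared mice on a diet that induces nonalcoholic steatohepatitis (NASH), a fatty liver disease with inflammation and scarring, with mice on chow. Both tables ask which genes NASH changes, in the whole organ and in its endothelium.

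The 4 groups were NASH liver, chow liver, NASH LSEC and chow LSEC, each with 3 libraries from C57BL/6 mice. No other genotype, drug or allele is named in the labels. The labels give 36 weeks on the NASH diet in a note attached to every sample, those on chow included, so neither the age of the mice nor the length of chow feeding is known. LSEC came from non-parenchymal liver cells that were first depleted of CD11b-positive cells and then collected by CD146 beads. The labels do not say that replicate libraries came from separate animals, so p-values measure the spread between these libraries, which may be technical. The recovered reads came to 47000197 to 57397720 in a library of liver and to 18527017 to 19402863 in one of LSEC. Reads from the 43 genes made up 1.07% to 1.25% of a NASH liver library, against 0.648% to 0.719% of a chow liver library. In LSEC they made up 1.77% to 1.85% of a NASH library, against 1.55% to 1.65% of a chow library.

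Markers of the labelled tissues were present. The 8 hepatocyte markers summed to 3100453 to 3509145 normalized reads in NASH livers, against 6487255 to 6987498 in chow livers. The 11 sinusoidal endothelial markers summed to 352330.4 to 382532 normalized reads in NASH LSEC, against 587684 to 612312 in chow LSEC. Reads of markers of other cells were found too: no measured marker of the lists below was at 0 in every LSEC library. This says little, since a few reads in 1 library suffice and genes missing from the deposited values were not counted. Of 12 sinusoidal endothelial markers listed, 11 were measured. Among the chow LSEC libraries, which carry numbers only as names, library 3 stood lowest for all 12 resident Kupffer cell markers, and library 2 held 80584 normalized reads of hepatocyte markers, against 14116 in chow library 1 and 6786 in chow library 3.

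Lysosomes are acidic organelles that digest proteins, glycans and lipids delivered by endocytosis, phagocytosis and autophagy. A proton pump, the V-ATPase, acidifies the lumen, where cathepsins cut proteins, glycosidases trim sugar chains and other hydrolases and their activator proteins take lipids apart, while heavily glycosylated proteins such as Lamp1 and Lamp2 line the membrane. Transcription factors of the Mitf/Tfe family bind a short palindrome before many lysosomal genes, the CLEAR element, whose core is the letters CACGTG. In the liver, macrophages are rich in lysosomal proteases, and LSEC are known for scavenging waste from the blood into their lysosomes.

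The core of that element was searched for in the 250 bases before each RefSeq start (build GRCm38.p6), where a gene can have several starts. CACGTG reads the same on both strands. Promoters were found for 38 of the 43 genes, all but Ctsb, Ctsh, Asah1, Atp6v1b2 and Atp6v1h. CACGTG occurred in 12 of these 38 (31.6%) and in 1145 of the 12759 genes of the deposited tables with a promoter (8.97%), counting a gene where any of its windows held it. By window the counts were 12 of 49 (24.5%) and 1212 of 16031 (7.56%). A match describes the letters and is not a measured binding site. Below are the 150 bases directly before a RefSeq start of 6 of the 12 genes, 5'-to-3' on the gene's own strand with each CACGTG in capitals. They were chosen because Lamp1, Mcoln1 and Cln3 carry the core more than once in these bases, and because Ctsd, Naglu and Lgmn differ in how they responded in the 2 tissues. Their positions are chr8:13159011-13159160 (+ strand) for Lamp1, chr8:3500369-3500518 (+) for Mcoln1, chr7:126583237-126583386 (- strand) for Cln3, chr7:142387828-142387977 (-) for Ctsd, chr11:101069944-101070093 (+) for Naglu and chr12:102439093-102439242 (-) for Lgmn. Cln3 and Lgmn have 2 RefSeq starts each, of which the one without CACGTG is not shown. The GENCODE gene begins at the same base as the RefSeq start for Lamp1, but that start lies 62 bases inside the GENCODE gene for Mcoln1, 82 for Naglu, 211 for Ctsd, 721 for Lgmn and 2581 for Cln3, so the stretches of Ctsd, Lgmn and Cln3 lie wholly within the annotated gene.
Lamp1: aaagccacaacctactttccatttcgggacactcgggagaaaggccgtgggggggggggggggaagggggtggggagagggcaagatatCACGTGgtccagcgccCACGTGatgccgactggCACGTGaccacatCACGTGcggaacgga
Mcoln1: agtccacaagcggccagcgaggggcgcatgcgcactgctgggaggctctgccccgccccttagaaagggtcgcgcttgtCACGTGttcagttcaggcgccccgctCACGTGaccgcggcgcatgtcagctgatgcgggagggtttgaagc
Cln3: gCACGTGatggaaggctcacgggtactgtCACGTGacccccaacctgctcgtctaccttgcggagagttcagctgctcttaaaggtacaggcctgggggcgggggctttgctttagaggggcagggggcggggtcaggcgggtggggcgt
Ctsd: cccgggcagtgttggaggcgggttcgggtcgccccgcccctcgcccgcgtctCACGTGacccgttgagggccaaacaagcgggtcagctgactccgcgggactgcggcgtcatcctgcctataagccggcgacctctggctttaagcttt
Naglu: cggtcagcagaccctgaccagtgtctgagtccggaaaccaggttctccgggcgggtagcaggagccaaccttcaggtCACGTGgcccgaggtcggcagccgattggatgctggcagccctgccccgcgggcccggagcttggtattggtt
Lgmn: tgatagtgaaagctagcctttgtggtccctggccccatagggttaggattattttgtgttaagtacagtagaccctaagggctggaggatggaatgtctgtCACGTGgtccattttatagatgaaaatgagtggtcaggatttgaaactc

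In the stretch of Lamp1 the core stands 4 times, in those of Mcoln1 and Cln3 2 times and in the other 3 once. In liver 7 of the 12 genes with the core were higher in NASH and 3 lower, with a median log2 fold change of 0.33, against 13 higher and 2 lower of the 26 genes without it, with a median of 0.32. In LSEC none of the 12 passed the limma test in either direction, with a median of -0.20, against 8 higher and 4 lower of the 26, with a median of -0.11. At an unadjusted p under 0.05, 1 of the 12 was higher and 4 were lower, edgeR called none and DESeq2 called 2 lower. Of the 26, 9 were higher and 6 lower unadjusted, edgeR called 6 higher and 4 lower, and DESeq2 8 higher and 5 lower. Over all genes, limma called 25.0% higher and 21.0% lower in liver, and 5.24% and 2.86% in LSEC.

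In NASH liver the proteases Ctsj, Ctsk, Ctss and Lgmn, the membrane proteins Cd68 and Laptm5 and several glycan and lipid hydrolases rose, while the cathepsins Ctsf, Ctsh and Ctsl, acid alpha-glucosidase (Gaa), Lamp2 and Scarb2 fell, of which Gaa and Scarb2 also passed as lower once scaled by total reads. Of the 43 genes, 23 were higher in NASH, 6 were lower and 14 did not pass the test (limma on log2 of normalized reads plus 1, Benjamini-Hochberg adjusted p under 0.05 over all 16703 genes). Of all these genes 25.0% were called higher and 21.0% lower, 46.0% in all. The median log2 fold change of the 43 was 0.32, against 0.02 over all genes. All 3 NASH livers lay above all 3 chow livers for 25 of the 43 and below them for 10, against 29.8% and 27.3% of all genes. Scaling by total reads in place of the authors' factors moved the median of all genes up by 0.40 on the log2 scale and gave 33 of the 43 higher and 2 lower, with a median of 0.74, beside 7880 genes higher and 904 lower in the whole table in place of 4179 and 3512. In whole tissue, fewer cells of a type and less RNA per cell cannot be told apart.

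**Figure D1:**
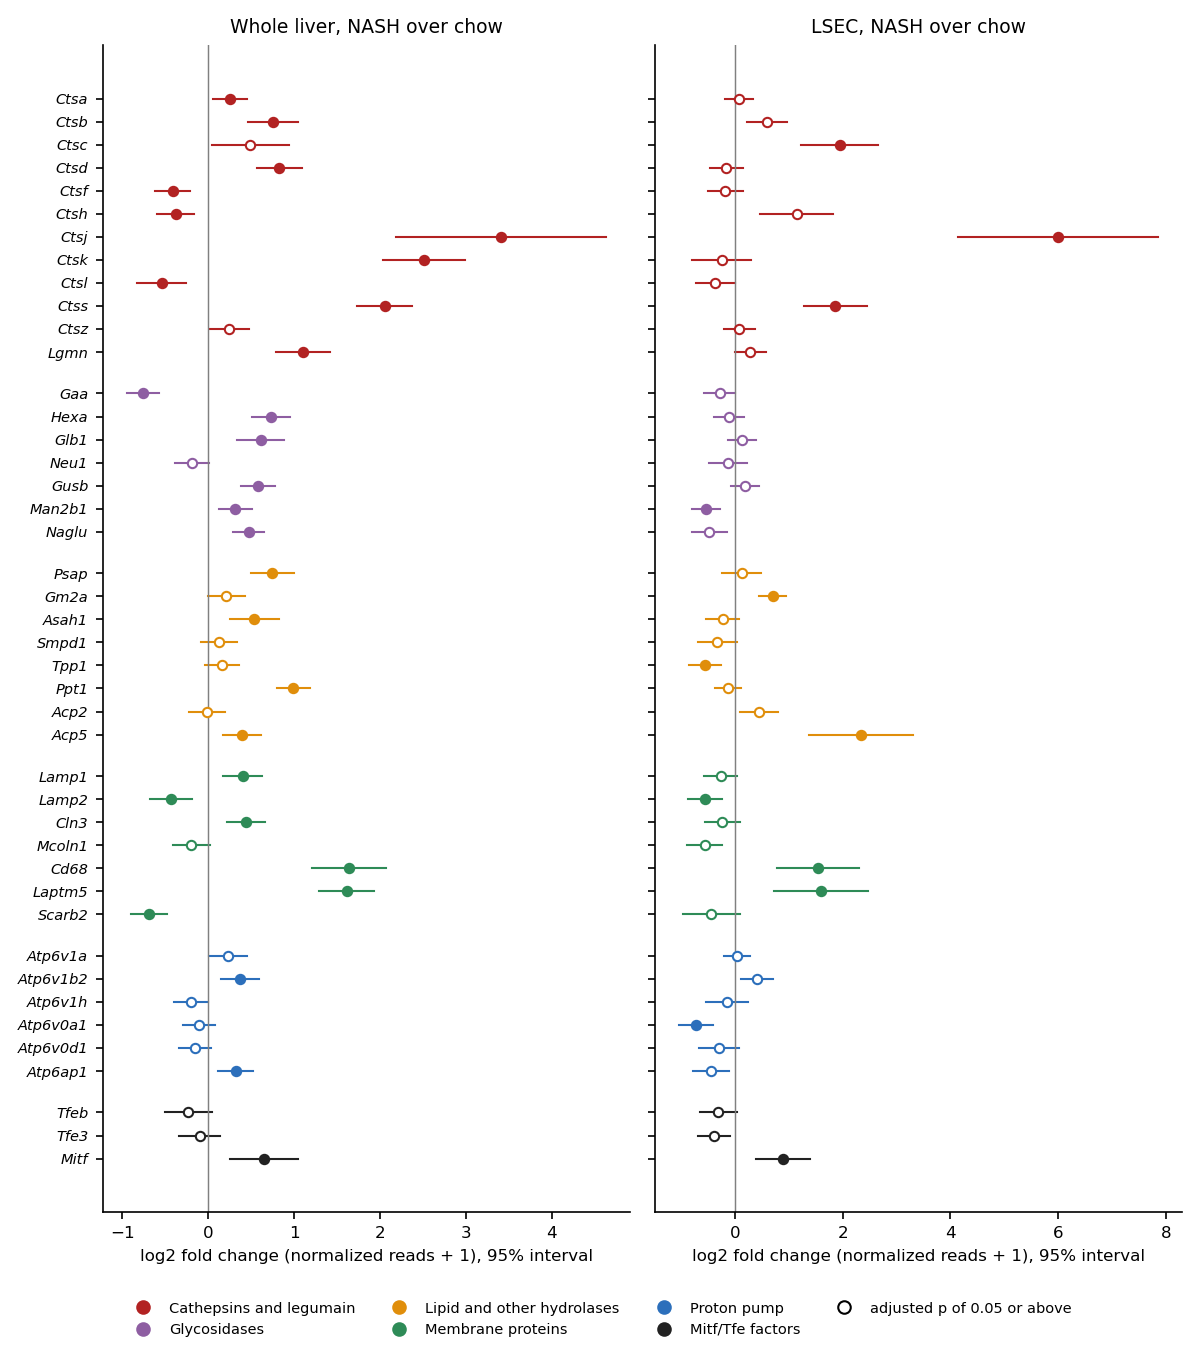
Log2 fold change of each of the 43 genes, NASH over chow, in whole liver (left) and LSEC (right), with 95% intervals from the limma fit (3 libraries per group). Filled points had an adjusted p under 0.05, 29 of 43 in liver and 12 of 43 in LSEC, and colours mark the 6 roles.

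The liver cathepsins split: 7 of 12 were higher and 3 were lower in NASH, and once scaled by total reads 9 were higher and none lower (none at an unadjusted p under 0.05). Ctsk, the collagen-cutting cathepsin best known from bone-resorbing osteoclasts, had 397, 279 and 467 normalized reads in NASH livers, against 67.6, 59.3 and 66.7 in chow livers. The groups lay far apart, and chow livers differed little among themselves. It changed by 2.51 ± 0.21 (SE, adjusted p = 2.55e-05) on the log2 scale. Ctss, which trims the invariant chain of MHC class II in antigen-presenting cells, had 12621, 12942 and 17737 normalized reads in NASH livers, against 2955, 3550.1 and 3856 in chow livers. NASH library 3 was the highest, and no NASH liver came near the chow range. The log2 fold change of Ctss was 2.05 ± 0.15 (SE, adjusted p = 9.72e-06). These neighbours on chromosome 3, Ctsk at 95499256 to 95509362 and Ctss at 95526786 to 95556403 in mm10, share no exon bases in the annotation.

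Ctsj, a cathepsin known in rodents from the placenta, was the gene with the largest fitted rise and the fewest reads. It had 18.4, 8.04 and 12.9 normalized reads in NASH livers, against 0, 0 and 1.03 in chow livers. Those are 20, 8 and 16 reads, against 0, 0 and 1 read. The ratio of the summed rates was 36.3 with an exact 95% interval of 6.18 to 1466, which covers counting error only. The fitted log2 fold change of 3.41 ± 0.55 (SE, adjusted p = 0.000836) depends on the pseudocount and ranged from 1.14 to 5.80 over the alternatives. Ctsj lies on chromosome 13 at 61000179 to 61005959 in mm10, and none of its 50-base words occurs in another annotated gene.

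Legumain, the asparagine-specific protease that matures several cathepsins, rose too. Lgmn had 10586, 11431 and 14761 normalized reads in NASH livers, against 5061, 5407 and 6627 in chow livers. Every NASH liver was above every chow liver. The fitted log2 fold change was 1.10 ± 0.14 (SE, adjusted p = 0.000234). The aspartic protease Ctsd had 43553, 40796 and 52457 normalized reads in NASH livers, against 24592, 25465 and 26671 in chow livers. Chow livers were close together and the NASH livers spread above them. The change of Ctsd was 0.83 ± 0.12 (SE, adjusted p = 0.000442) on the log2 scale. Ctsb, an abundant cysteine protease, and Ctsa, the carboxypeptidase that protects beta-galactosidase and neuraminidase, were also higher, at 0.76 and 0.25, and Ctsa lost its call in 5 of the 6 fits without 1 library. Reads of Ctsd, Ctsa and Ctsb are uncertain because 34.4%, 17.4% and 12.8% of their exon bases overlap another annotated gene, and the liver kit does not mark strand.

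The 3 cathepsins that fell were Ctsl, Ctsf and Ctsh. Ctsl, a broadly expressed endopeptidase, had 35097, 37932 and 33426 normalized reads in NASH livers, against 56563, 55229 and 44158 in chow livers. Chow library 3 was nearest to the NASH livers, without overlap. On the log2 scale it changed by -0.54 ± 0.13 (SE, adjusted p = 0.00652), and -0.13 (adjusted p = 0.301) with scaling by total reads. For Ctsl 26.8% of exon bases overlap another gene. Ctsf, another cysteine cathepsin, had 1876, 1616 and 1638 normalized reads in NASH livers, against 2147, 2375 and 2311 in chow livers. NASH library 1 came closest to chow. The change of Ctsf was -0.42 ± 0.09 (SE, adjusted p = 0.00517) on the log2 scale. Ctsh, an aminopeptidase, had 13938, 12596 and 13118 normalized reads in NASH livers, against 15918, 17101 and 18738 in chow livers. The groups did not overlap. It changed by -0.38 ± 0.09 (SE, adjusted p = 0.00892) on the log2 scale, and with scaling by total reads Ctsf and Ctsh were level between the diets, at 0.00034 and 0.03. The remaining 2, Ctsc and Ctsz, did not pass, at 0.49 (adjusted p = 0.0704) and 0.24 (adjusted p = 0.0723).

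**Figure D2:**
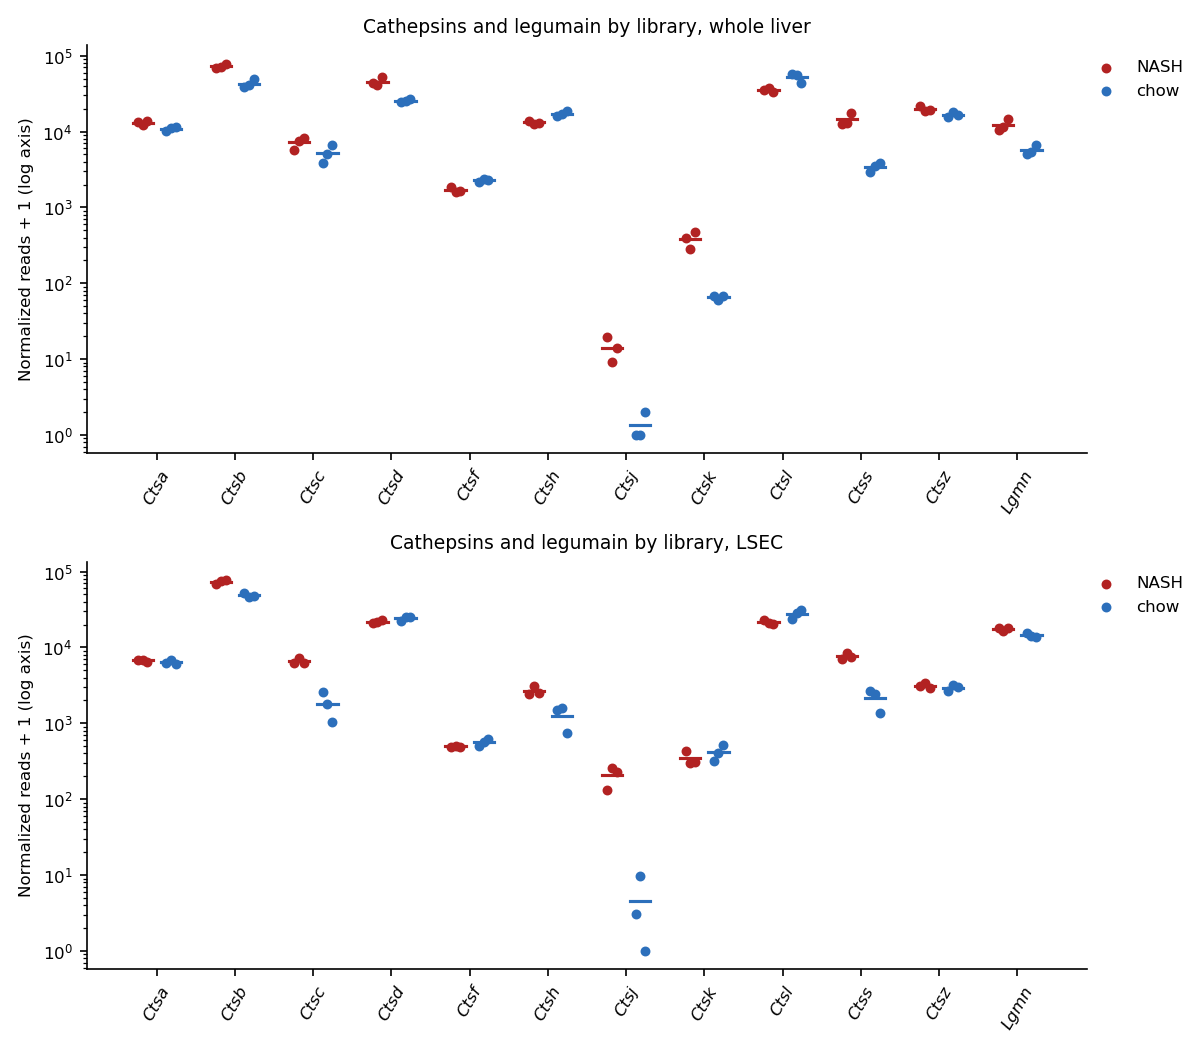
Normalized reads plus 1 (log axis) of the 12 cathepsins (legumain among them) in each library of whole liver (top) and LSEC (bottom), NASH left of chow, with a bar at each group's mean. Ctsk lies apart in liver and overlaps in LSEC, whereas Ctsc lies apart in LSEC and overlaps in liver.

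Among the glycosidases, which strip sugars from glycoproteins, glycolipids and glycosaminoglycans, 5 of 7 rose in liver and 1 fell, the same with scaling by total reads. Hexa, the alpha subunit of beta-hexosaminidase, had 8656, 7126 and 8429.6 normalized reads in NASH livers, against 4494, 5118 and 4928 in chow livers. Its groups lay well apart. The log2 fold change was 0.73 ± 0.10 (SE, adjusted p = 0.000324), on a gene of which 12.8% of exon bases overlap another. Naglu, which acts on heparan sulfate, had 2235, 2269 and 2261 normalized reads in NASH livers, against 1551, 1659.6 and 1676 in chow livers. The 3 NASH livers were nearly equal. Naglu changed by 0.47 ± 0.08 (SE, adjusted p = 0.0012) on the log2 scale. Man2b1, the lysosomal alpha-mannosidase, had 10020.4, 10623 and 11057 normalized reads in NASH livers, against 8181, 8352 and 8925 in chow livers. The gap between the groups was small. Its change of 0.32 ± 0.08 (SE, adjusted p = 0.0121) on the log2 scale lost its call without chow library 1 or chow library 2. Glb1 and Gusb, the beta-galactosidase and beta-glucuronidase, rose by 0.61 and 0.58, and Neu1, a sialidase, was at -0.19 (adjusted p = 0.101). Gaa, which breaks down glycogen, went the other way with 5546, 5307 and 5125 normalized reads in NASH livers, against 8577, 8931 and 9634 in chow livers. All NASH livers were below all chow livers. Its log2 fold change was -0.76 ± 0.08 (SE, adjusted p = 9.21e-05), and it was still lower with scaling by total reads, at -0.35 (adjusted p = 0.00787).

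Of the 8 lipid and other hydrolases, 4 rose in liver and none passed as lower (none at an unadjusted p under 0.05, and none by edgeR or DESeq2), whereas all 8 passed as higher once scaled by total reads. Ppt1, which removes fatty acids from proteins, had 3403, 3618 and 3537 normalized reads in NASH livers, against 1705, 1696 and 1918 in chow livers. The NASH livers stood close together and apart from chow. NASH over chow, the log2 fold change was 0.99 ± 0.09 (SE, adjusted p = 2.85e-05). Psap, the precursor of the saposins that present sphingolipids to their hydrolases, had 67941, 71975 and 78307 normalized reads in NASH livers, against 42549, 42905 and 44497 in chow livers. No NASH liver approached the chow range. Psap changed by 0.75 ± 0.11 (SE, adjusted p = 0.000609) on the log2 scale. Asah1, acid ceramidase, had 3688, 3967 and 4826 normalized reads in NASH livers, against 2555, 2748 and 3294 in chow livers. Chow library 3 was the highest of chow and still below all of NASH. Asah1 changed by 0.54 ± 0.13 (SE, adjusted p = 0.00661) on the log2 scale. Acp5, the tartrate-resistant acid phosphatase of osteoclasts and macrophages, had 9597, 8504 and 8628 normalized reads in NASH livers, against 6067, 6969.6 and 7399 in chow livers. The groups did not overlap. Its change was 0.39 ± 0.10 (SE, adjusted p = 0.00976) on the log2 scale. Gm2a, the GM2 ganglioside activator, had 6320.5, 6077 and 6243 normalized reads in NASH livers, against 4730.1, 5872 and 5605 in chow livers. All NASH livers were above chow, by little. Gm2a changed by 0.21 ± 0.10 (SE, adjusted p = 0.102) on the log2 scale, which missed the threshold. Tpp1, a tripeptidyl peptidase, had 7708, 7592 and 6998 normalized reads in NASH livers, against 6236, 6497 and 7228 in chow livers. Its groups overlapped. Tpp1, Smpd1 (acid sphingomyelinase) and Acp2 (an acid phosphatase) were at 0.16, 0.13 and -0.02, with adjusted p-values of 0.163, 0.289 and 0.911.

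The membrane proteins divided, with 4 of 7 higher and 2 lower in liver, and 4 higher and 1 lower with scaling by total reads. Cd68, a glycoprotein used as a macrophage marker, had 3055, 2890.3 and 4550.2 normalized reads in NASH livers, against 904, 1059 and 1389 in chow livers. NASH library 3 was the highest. Its log2 fold change was 1.64 ± 0.19 (SE, adjusted p = 0.000145). Laptm5, a lysosomal protein of blood-derived cells, had 6237, 6917 and 9227 normalized reads in NASH livers, against 2239.9, 2301 and 2713 in chow livers. NASH library 3 was again the highest, and the groups were far apart. Laptm5 changed by 1.61 ± 0.14 (SE, adjusted p = 3.2e-05) on the log2 scale. Lamp1, the classical lysosomal membrane protein, had 53231, 54292 and 50149.5 normalized reads in NASH livers, against 38780.1, 40582 and 40112 in chow livers. The groups did not overlap. Its change was 0.40 ± 0.10 (SE, adjusted p = 0.0107) on the log2 scale, and it lost its call without chow library 1. Cln3, the protein affected in juvenile Batten disease, had 1286, 1146 and 1172 normalized reads in NASH livers, against 848, 842 and 965 in chow livers. NASH livers were all higher. Cln3 changed by 0.44 ± 0.10 (SE, adjusted p = 0.00568) on the log2 scale.

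Lamp2, of which an isoform is the receptor of chaperone-mediated autophagy, fell where Lamp1 rose. It had 32116, 37642 and 30933 normalized reads in NASH livers, against 44316, 45807 and 45442 in chow livers. Chow livers were tightly grouped and all above NASH. The log2 fold change was -0.43 ± 0.11 (SE, adjusted p = 0.0104), lost without chow library 2, and -0.02 (adjusted p = 0.879) with scaling by total reads. Scarb2, which carries glucocerebrosidase to the lysosome, had 5064, 6197 and 5418 normalized reads in NASH livers, against 8937, 8545 and 9385 in chow livers. The groups lay apart. It changed by -0.69 ± 0.10 (SE, adjusted p = 0.000357) on the log2 scale and by -0.28 with scaling by total reads (adjusted p = 0.0371). Mcoln1, the calcium channel of the lysosomal membrane, was at -0.20 (adjusted p = 0.121).

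Of 6 proton pump genes 2 were higher in liver and none was lower (1 at an unadjusted p under 0.05, and none by edgeR or DESeq2), all within 0.20 below and 0.37 above 0 on the log2 scale, whereas all 6 passed as higher once scaled by total reads. Atp6ap1, an accessory protein of pump assembly, had 5654, 4903 and 5054 normalized reads in NASH livers, against 4067, 3949 and 4478 in chow livers. NASH livers were all above chow. It changed by 0.32 ± 0.09 (SE, adjusted p = 0.0162) on the log2 scale, a call lost without chow library 1 or 2. Atp6v1b2, a subunit of the catalytic head, rose by 0.37 (adjusted p = 0.0128), a call lost without chow library 2. Atp6v0a1, of the membrane sector, had 2813, 2934 and 3084 normalized reads in NASH livers, against 3327, 3235 and 2994 in chow livers. The groups overlapped. Its change was -0.11 ± 0.08 (SE, adjusted p = 0.289) on the log2 scale. Atp6v1a, Atp6v1h and Atp6v0d1 were at 0.23, -0.20 and -0.16 and did not pass.

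Of the 3 factors that bind the CLEAR element, Mitf passed in liver. Mitf had 329, 272 and 430.3 normalized reads in NASH livers, against 211, 214 and 223 in chow livers. NASH library 2 was the lowest of NASH and still above all of chow. It changed by 0.64 ± 0.18 (SE, adjusted p = 0.0145) on the log2 scale, lost without NASH library 3. Tfeb had 604, 479 and 594 normalized reads in NASH livers, against 662, 620.5 and 679.9 in chow livers. All NASH livers were below chow, by a small gap. Tfeb changed by -0.23 ± 0.12 (SE, adjusted p = 0.146) on the log2 scale. Tfe3 had 1282, 1432 and 1522 normalized reads in NASH livers, against 1439, 1408 and 1689 in chow livers. The groups overlapped, and the change was -0.10 ± 0.11 (SE, adjusted p = 0.482) on the log2 scale. Tfeb and Tfe3 would be at 0.18 and 0.32 with scaling by total reads, neither passing.

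Markers of other cells moved in the same livers. All 12 markers of recruited macrophages were higher in NASH liver, and their sum was 59282 to 106001 normalized reads in NASH livers, against 10179 to 15403 in chow livers. Of 12 resident Kupffer cell markers 7 were higher and 3 lower, with sums of 70198 to 103217 in NASH livers and 43539 to 60965 in chow livers. Of 8 hepatocyte markers 5 were lower and none higher (none unadjusted, by edgeR or by DESeq2), of 11 sinusoidal endothelial markers 1 was higher and 6 lower (3 and 4 once scaled by total reads, where the median log2 fold change was 0.08 in place of -0.34), and 6 of 8 stellate cell, 5 of 5 bile duct, 6 of 7 dendritic cell and 5 of 10 lymphocyte markers were higher. Stellate sums were 47803 to 63988 in NASH and 22574 to 26111 in chow, and bile duct sums, which include Spp1 of the macrophage list, 18059 to 35413 in NASH and 2259 to 2925 in chow. Endothelial sums were 24870.5 to 27543 in NASH and 36264 to 40559.9 in chow, dendritic sums 844 to 963 in NASH and 412 to 463 in chow, and lymphocyte sums 1093 to 1655 in NASH and 582 to 1105 in chow. Their part in the lysosomal changes was not tested.

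In LSEC from NASH livers, 8 of the 43 genes were higher and 4 lower, led by Ctsj, Acp5, Ctsc and Ctss among the hydrolases and by Laptm5 and Cd68 among the membrane proteins. Over all 16273 genes 5.24% were called higher and 2.86% lower by the same limma test, 8.11% in all. The median log2 fold change of the 43 was -0.12, against 0.00 over all genes. All NASH LSEC lay above all chow LSEC for 15 of the 43 and below for 12, against 16.5% and 15.4% of all genes. Scaling by total reads gave 11 higher and 1 lower and moved the median of all genes by 0.14. In the whole table it gave 1164 genes higher and 273 lower, in place of 853 and 466.

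The LSEC calls rest on few libraries. Without NASH library 2 or without NASH library 3 none of the 43 passed by limma, although 13 were higher and 8 lower at an unadjusted p under 0.05 without NASH library 2, and 11 and 7 without NASH library 3. Without NASH library 1 the calls left were Ctsj and Ctss. Without chow library 3, the one lowest in Kupffer markers, 5 were higher (Ctsc, Ctsj, Ctss, Acp5 and Cd68) and none lower (7 at an unadjusted p under 0.05). Without chow library 1, 8 were higher and 1, Atp6v0a1, lower. Without chow library 2, 6 were higher and 1 lower, of which Ctsh and Scarb2 had not passed in the fit of all libraries. On all libraries edgeR called 7 higher and 4 lower, and DESeq2 11 higher and 7 lower.

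Ctsj had 130.4, 256 and 228 normalized reads in NASH LSEC, against 2.09, 8.7 and 0 in chow LSEC. Those are 135, 274 and 245 reads, against 2, 8 and 0. The ratio of summed rates was 58.6 with an exact 95% interval of 31.7 to 122.9 from counting alone, and the fitted log2 fold change was 5.99 ± 0.79 (SE, adjusted p = 0.0113). Ctsc, the dipeptidyl peptidase that activates granule proteases of immune cells, had 6142, 7268 and 6174 normalized reads in NASH LSEC, against 2589.7, 1783 and 1047 in chow LSEC. NASH LSEC were all well above chow, and chow library 3 was the lowest. The fitted log2 fold change was 1.94 ± 0.30 (SE, adjusted p = 0.0168). Ctss had 7084, 8357 and 7551 normalized reads in NASH LSEC, against 2696, 2463 and 1381 in chow LSEC. Chow library 3 was again the lowest, and the groups did not overlap. Ctss changed by 1.87 ± 0.25 (SE, adjusted p = 0.0115) on the log2 scale.

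Acp5 had 1726, 1930.4 and 1540.3 normalized reads in NASH LSEC, against 556, 423 and 166 in chow LSEC. NASH LSEC were all above chow, and chow library 3 was the lowest. On the log2 scale Acp5 changed by 2.34 ± 0.41 (SE, adjusted p = 0.0226). Gm2a had 3099.6, 2868 and 2822 normalized reads in NASH LSEC, against 1885, 1851 and 1669.5 in chow LSEC. Here the chow libraries were close to each other. Gm2a changed by 0.70 ± 0.11 (SE, adjusted p = 0.0164) on the log2 scale. Cd68 had 4219, 4263 and 4486 normalized reads in NASH LSEC, against 2254, 1691 and 849.6 in chow LSEC. NASH LSEC hardly differed, whereas chow spread. The change of Cd68 was 1.55 ± 0.32 (SE, adjusted p = 0.0355) on the log2 scale. Laptm5 had 4271, 4075 and 4984 normalized reads in NASH LSEC, against 2734, 1297 and 883 in chow LSEC. Chow library 1 was the highest of chow and still below NASH. Its change was 1.60 ± 0.37 (SE, adjusted p = 0.0456) on the log2 scale.

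Mitf had 199, 226 and 231 normalized reads in NASH LSEC, against 141, 94.7 and 119 in chow LSEC. The groups did not overlap, at low levels. NASH over chow, the log2 fold change was 0.90 ± 0.21 (SE, adjusted p = 0.0483), and edgeR did not call it. Tfeb had 349.8, 327 and 344 normalized reads in NASH LSEC, against 374, 466 and 428 in chow LSEC. All NASH LSEC were below chow. Tfeb changed by -0.31 ± 0.15 (SE, adjusted p = 0.236) on the log2 scale. Tfe3 had 2158, 1721 and 1943 normalized reads in NASH LSEC, against 2603, 2652 and 2304 in chow LSEC. NASH LSEC were all below chow here too. Its change was -0.38 ± 0.13 (SE, adjusted p = 0.114) on the log2 scale, which did not pass.

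The 4 that fell were Man2b1, Tpp1, Lamp2 and Atp6v0a1. The calls of Man2b1, Tpp1 and Lamp2 were lost in every fit without 1 library and with scaling by total reads. Man2b1 had 7414, 7819.7 and 7890.0 normalized reads in NASH LSEC, against 11649, 10735 and 11085 in chow LSEC. Both groups were tight and apart. Its log2 fold change was -0.53 ± 0.11 (SE, adjusted p = 0.0322). Tpp1 had 7918, 9636 and 8695 normalized reads in NASH LSEC, against 11926, 12935 and 13509.8 in chow LSEC. The groups did not overlap. Tpp1 changed by -0.55 ± 0.13 (SE, adjusted p = 0.0438) on the log2 scale. Lamp2 had 23577, 23347 and 22739.5 normalized reads in NASH LSEC, against 31327, 34759.7 and 36402 in chow LSEC. NASH LSEC were nearly equal. The change of -0.55 ± 0.13 (SE, adjusted p = 0.0494) on the log2 scale stands at the threshold and was lost with TMM factors. Atp6v0a1 had 3256, 2553 and 2883 normalized reads in NASH LSEC, against 4663, 5247 and 4338 in chow LSEC. NASH LSEC were all below chow. Its change was -0.72 ± 0.13 (SE, adjusted p = 0.027) on the log2 scale, the one fall left with scaling by total reads.

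By role, the LSEC counts were 3 higher and none lower of 12 cathepsins (1 lower at an unadjusted p under 0.05), none higher and 1 lower of 7 glycosidases (none higher and 3 lower unadjusted), 2 higher and 1 lower of 8 lipid and other hydrolases, 2 higher and 1 lower of 7 membrane proteins, none higher and 1 lower of 6 pump genes (1 higher and 2 lower unadjusted) and 1 higher and none lower of 3 factors (1 lower unadjusted). DESeq2 called 5 cathepsins and 1 pump gene higher, and 2 glycosidases, 2 membrane proteins and 2 pump genes lower. Cathepsins Ctsb and Ctsh, at 0.60 (adjusted p = 0.0615) and 1.15 (adjusted p = 0.0569), missed the threshold with NASH LSEC all above chow. With scaling by total reads no glycosidase, lipid hydrolase or membrane protein passed as lower by limma (2, 1 and 2 at an unadjusted p under 0.05). The 12 further genes given without library values, among them Ctsa, Neu1, Smpd1 and Atp6v1a, lay between -0.56 (Mcoln1) and 0.45 (Acp2) on the log2 scale in LSEC, and none passed by limma.

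**Figure D3:**
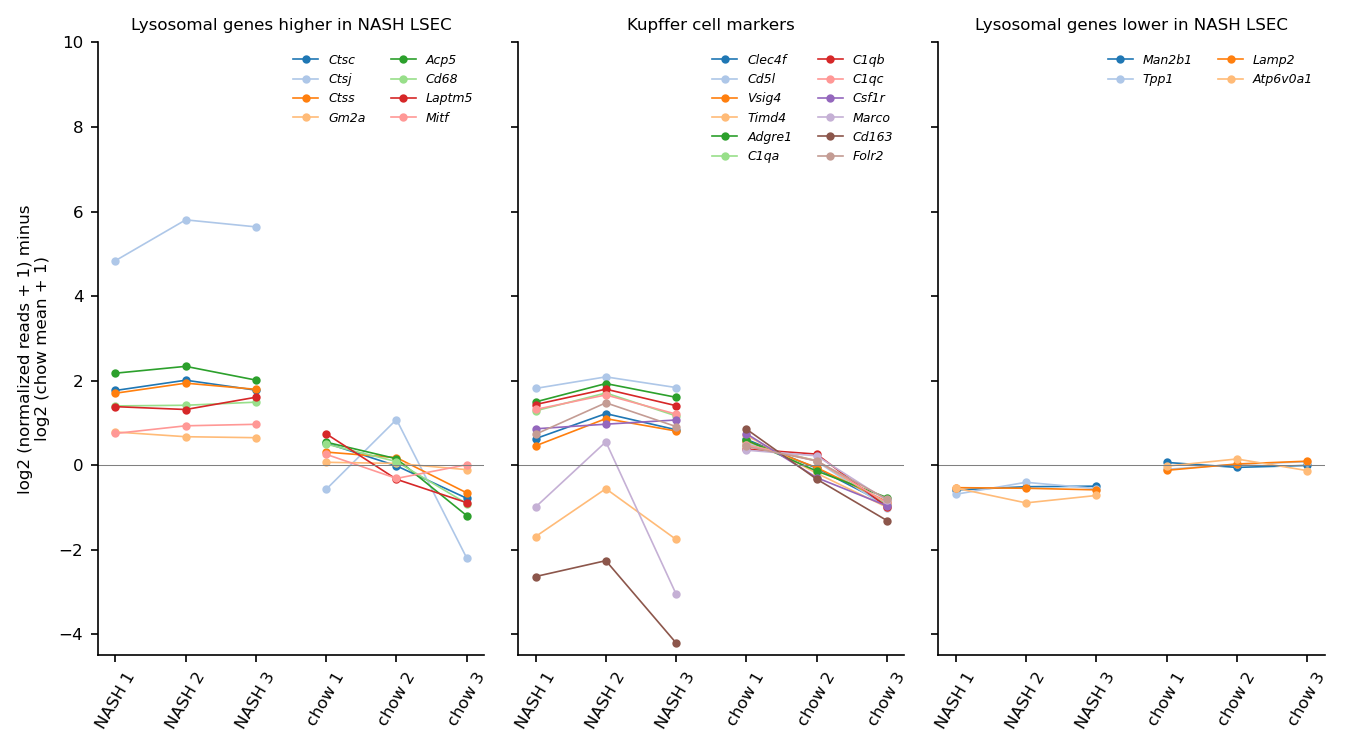
Log2 of normalized reads plus 1 in each LSEC library, minus log2 of the chow mean plus 1, for the 8 lysosomal genes higher in NASH LSEC (left), the 12 resident Kupffer cell markers (middle) and the 4 lysosomal genes lower in NASH LSEC (right). Lines join values of 1 gene within a diet and replicates have no order. Chow library 3 is the lowest of chow for 7 of the 8 genes on the left and for all 12 markers. The 8 genes were picked by their values in these libraries. The share of all genes lowest in chow library 3 was not counted.

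Sums of macrophage markers were also higher in NASH LSEC, but the 2 lists differed by library. Among chow LSEC, library 3 had the lowest sum of resident Kupffer cell markers, 13996, and the highest of recruited macrophage markers, 12664. The recruited list shares Spp1 with the bile duct list. Bile duct sums were also highest in chow library 3, at 9372, against 4121 and 4794 in chow libraries 1 and 2. In NASH LSEC both sums were highest in library 2, at 60182 and 46882. The part of Spp1 in the recruited sums was not tested. Of 12 resident Kupffer cell markers 5 were higher and 1 lower in NASH LSEC, with sums of 59523 to 77612 normalized reads in NASH LSEC, against 13996 to 39780.3 in chow LSEC. None of them passed as higher by limma without NASH library 1, 2 or 3 (9, 6 and 6 at an unadjusted p under 0.05), 7 did without chow library 1, 3 without chow library 2 and 2 without chow library 3. Of 12 recruited macrophage markers 6 were higher and none lower (none unadjusted, edgeR 5 and DESeq2 8 higher), with sums of 26048 to 60182 in NASH LSEC, against 9781 to 12664 in chow LSEC, and 3 to 9 were higher in the fits without 1 library. Cells were depleted of CD11b-positive cells before collection, and Itgam, which encodes CD11b and belongs to that list, had 177, 201 and 231 normalized reads in NASH LSEC, against 164, 49.0 and 38.9 in chow LSEC (log2 fold change 1.55, adjusted p = 0.111). Of 11 sinusoidal endothelial markers 1 was higher and 4 lower, and 0 to 4 were lower in the fits without 1 library (6 to 8 unadjusted). Hepatocyte markers summed to 37438 to 79949 in NASH LSEC and 6786 to 80584 in chow LSEC, and none of 8 passed by limma, edgeR or DESeq2 (1 higher at an unadjusted p under 0.05). Without chow library 2, the one high in these markers, 5 of the 8 were higher and none lower by limma (8 higher and none lower unadjusted). Leaving out the chow library with the highest sum lowers the chow mean by construction, so that fit is no separate evidence of a rise. Stellate cell markers summed to 31065 to 59630 in NASH LSEC and 13757 to 33228 in chow LSEC, with 2 of 8 higher and none lower (none unadjusted). Bile duct markers summed to 10282 to 46882 in NASH LSEC and 4121 to 9372 in chow LSEC, and all 5 were higher by DESeq2 and at an unadjusted p under 0.05, none by limma or edgeR. Of 7 dendritic cell markers 1 was higher, with sums of 1754 to 2587 in NASH LSEC and 2089 to 3730.5 in chow LSEC, and of 10 lymphocyte markers none passed by limma, edgeR or DESeq2 (1 unadjusted), with sums of 562 to 1095 in NASH LSEC and 587 to 1644 in chow LSEC. The part of these cells in the lysosomal changes of LSEC was not tested.

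The effect of NASH differed between the tissues for 19 of the 43 genes: the log2 fold change was higher in liver than in LSEC for 14 and lower for 5. Of the 15766 genes measured in both tissues, 19.5% differed, 11.5% with the higher fold change in liver and 7.99% with the higher in LSEC. The test set the difference of the 2 log2 fold changes (liver minus LSEC) against its standard error with a t distribution, adjusted over those 15766 genes. The levels themselves were not compared, since the tables were normalized separately. Calls coincided for 6 genes higher in both tissues, 1 lower in both (Lamp2) and 10 called in neither, and Man2b1 was higher in liver and lower in LSEC. The LSEC calls of Lamp2 and Man2b1 were lost in every LSEC fit without 1 library. How often calls coincide over all genes was not counted, so these counts have no baseline.

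Ctsk showed the widest gap. It had 437, 301 and 304 normalized reads in NASH LSEC, against 322, 405 and 509.8 in chow LSEC. Those groups overlapped, and the difference between tissues was 2.76 ± 0.31 (SE, adjusted p = 4.4e-05). Ctsd had 21033, 21399.9 and 22782 normalized reads in NASH LSEC, against 22121, 25305 and 25260.0 in chow LSEC. The LSEC groups overlapped, and liver minus LSEC was 0.98 ± 0.18 (SE, adjusted p = 0.0014). Lgmn had 18179, 16574 and 18136 normalized reads in NASH LSEC, against 15463, 13980.5 and 13863 in chow LSEC. NASH LSEC were above chow by less than in liver, and the difference was 0.81 ± 0.19 (SE, adjusted p = 0.00615).

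Ctsc, Ctsh and Acp5 had the higher log2 fold change in LSEC. Ctsc had 5629, 7606 and 8325 normalized reads in NASH livers, against 3805, 5079 and 6679 in chow livers. Those groups overlapped, and liver minus LSEC was -1.46 ± 0.36 (SE, adjusted p = 0.0143), a call lost without NASH LSEC library 2. Ctsh had 2415, 3089 and 2512 normalized reads in NASH LSEC, against 1484, 1578 and 736 in chow LSEC. It was higher in every NASH LSEC library and lower in every NASH liver, and the difference was -1.53 ± 0.31 (SE, adjusted p = 0.00943). Acp5, higher in both tissues, differed by -1.95 ± 0.42 (SE, adjusted p = 0.0157), a call lost without NASH LSEC library 1 or 2.

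The log2 fold changes of 3 glycosidases were higher in liver and that of Gaa lower. Hexa had 4067, 4581 and 3978 normalized reads in NASH LSEC, against 4057, 4744 and 4792 in chow LSEC. The LSEC groups overlapped, and the difference was 0.84 ± 0.16 (SE, adjusted p = 0.00202). Naglu had 1234, 1011 and 1062 normalized reads in NASH LSEC, against 1333, 1669 and 1599.9 in chow LSEC. NASH LSEC were below chow whereas NASH livers were above, and the difference was 0.94 ± 0.16 (SE, adjusted p = 0.00201). Man2b1 differed by 0.85 ± 0.14 (SE, adjusted p = 0.000767). Gaa had 2987, 2794 and 3173 normalized reads in NASH LSEC, against 3759.7, 3233 and 3913 in chow LSEC. NASH was below chow in both tissues, and liver minus LSEC was -0.48 ± 0.15 (SE, adjusted p = 0.0337), a call lost with scaling by total reads (-0.20), by edgeR and without any of 6 libraries.

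Lipid hydrolases differed mostly in the same direction. Ppt1 had 3504, 3532 and 3433 normalized reads in NASH LSEC, against 3523, 3869 and 4001 in chow LSEC. The groups overlapped, and the difference was 1.11 ± 0.13 (SE, adjusted p = 7.81e-05). Asah1 had 5282, 5579 and 5309.6 normalized reads in NASH LSEC, against 5529, 6150.3 and 7282 in chow LSEC. They overlapped as well, and the difference was 0.76 ± 0.18 (SE, adjusted p = 0.00856). Psap had 41163, 39871 and 46423 normalized reads in NASH LSEC, against 40324, 35729 and 40598 in chow LSEC. The LSEC groups again overlapped, and the difference of 0.62 ± 0.19 (SE, adjusted p = 0.0333) was lost by edgeR and in 8 of the 12 fits without 1 library. Tpp1 differed by 0.71 ± 0.15 (SE, adjusted p = 0.00615). Gm2a went the other way, at -0.49 ± 0.14 (SE, adjusted p = 0.0253), a call lost with scaling by total reads, by edgeR and without any of 4 libraries.

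Membrane proteins and pump genes completed the set. Lamp1 had 18619, 20584 and 19491 normalized reads in NASH LSEC, against 21722, 23086 and 25491 in chow LSEC. NASH LSEC were below chow and NASH livers above, and the difference was 0.66 ± 0.17 (SE, adjusted p = 0.0135). Cln3 had 817, 876 and 763 normalized reads in NASH LSEC, against 833, 1085 and 976 in chow LSEC. The LSEC groups overlapped, and the difference was 0.67 ± 0.17 (SE, adjusted p = 0.0153). Both calls were lost without chow LSEC library 3 or NASH LSEC library 3. Atp6v0a1 differed by 0.60 ± 0.16 (SE, adjusted p = 0.0197), a call lost without chow LSEC library 2, NASH LSEC library 2 or NASH LSEC library 3. Atp6ap1 had 5911, 7235 and 6037 normalized reads in NASH LSEC, against 7523, 9186 and 9450.1 in chow LSEC. NASH LSEC were all below chow, and the difference was 0.77 ± 0.17 (SE, adjusted p = 0.00788).

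For other genes no difference was shown. Ctss differed by 0.19 with a 95% interval of -0.44 to 0.81, Cd68 by 0.09 (-0.73 to 0.91), Laptm5 by 0.01 (-0.88 to 0.91) and Mitf by -0.25 (-0.85 to 0.34). The fitted rise of Ctsj was larger in LSEC, with a difference of -2.58 ± 0.96 (SE, adjusted p = 0.0753), which did not pass. Falls that passed in liver were not matched by a call in LSEC for Ctsf, Ctsl and Scarb2. Ctsf had 489.9, 507 and 487 normalized reads in NASH LSEC, against 497, 565 and 615 in chow LSEC. Its groups overlapped. Ctsl had 23172, 20806 and 20232 normalized reads in NASH LSEC, against 23553, 28652 and 30739 in chow LSEC. NASH LSEC were below chow, with chow library 1 close to NASH library 1. Scarb2 had 5128, 5689.6 and 5543 normalized reads in NASH LSEC, against 9559, 5129.8 and 8091 in chow LSEC. Chow library 2 lay within the NASH range. Their log2 fold changes in LSEC were -0.17, -0.36 and -0.43, and the differences between tissues of -0.24, -0.18 and -0.26 did not pass (adjusted p = 0.317, 0.558 and 0.494).

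**Figure D4:**
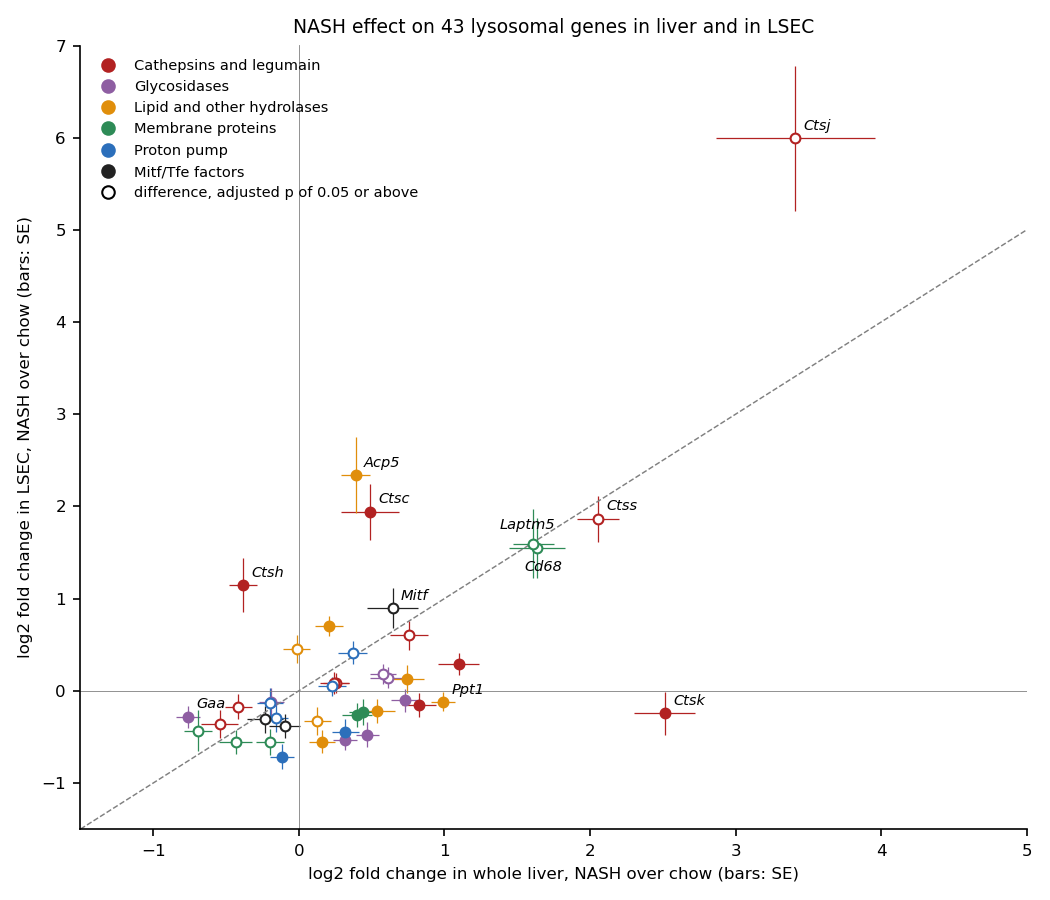
Log2 fold change of each of the 43 genes, NASH over chow, in whole liver (x axis) and in LSEC (y axis), with bars of 1 standard error and a dashed line of equal change. Filled points are the 19 genes whose effects differ at an adjusted p under 0.05. Ctsk and Ppt1 lie below the line, Acp5, Ctsc and Ctsh above it, and Laptm5, Cd68 and Ctss on or near it.

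Per length, the order of the genes within a tissue was led by Psap. Length was the merged exons of all annotated transcripts, 2744 bases for Psap and 6051 for Ctsb, and the order depends on it. Before division Ctsb had more normalized reads in NASH LSEC, at a mean of 73858 against 42486 for Psap. The exon overlap of Ctsd and Ctsb with other genes was not corrected for. In NASH liver Psap had 26509 ± 1904 normalized reads per kb of exon (SD, n = 3), ahead of Lamp1 at 19648 ± 804 and Ctsd at 19397 ± 2592, and the last 2 did not differ beyond their spread. In chow liver Psap led as well, at 15786 ± 378, followed by Lamp1 and Ctsz. Ctss ranked 6 of 43 in NASH liver with 10628 ± 2110.5 and 11 in chow liver with 2543 ± 337. In NASH LSEC Psap led with 15483 ± 1265, and Ctsb and Ctsd followed with 12206 ± 708 and 9246 ± 392. Ctss ranked 6 in NASH LSEC with 5644 ± 474, and 13 in chow LSEC with 1605 ± 517. Ctsj ranked 43 in NASH liver, with 9.19 reads per kb, and 37 in NASH LSEC, with 144, and was last in both chow groups.

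For other lists of lysosomal genes, the counts in liver stand against the 25.0% higher and 21.0% lower of all genes. Of 26 other lysosomal hydrolases 14 were higher in NASH liver and 5 lower, and with scaling by total reads 21 and 1. Arsb and Pla2g15 rose by 0.83 and 0.81, and Hgsnat, which acetylates heparan sulfate, was lower at -0.65 (adjusted p = 0.000204). Of 19 other membrane and transport genes 8 were higher and 1 lower (14 and 1 with scaling by total reads): the tetraspanin Cd63 changed by 3.60 ± 0.22 (SE, adjusted p = 3.61e-06) on the log2 scale, Tpcn2 and Clcn7 by 1.18 and 0.56, and the cholesterol exporter Npc1 by -0.78. Of 16 other pump subunits 4 were higher and none lower (none unadjusted, and none by edgeR, DESeq2 or scaling by total reads), with Atp6v0d2 at 1.87 ± 0.20 (SE, adjusted p = 8.48e-05), Atp6v0e2 at 1.96, Tcirg1 at 0.73 and Atp6v0e at 0.34.

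Genes around the lysosome were mixed. Of 12 receptors and enzymes of delivery 4 were higher and 1 lower in liver (11 and none with scaling by total reads), Gnptab at 0.72, Sort1 at 0.58, Gga2 at 0.39 and Ap1g1 at -0.45. Of 19 genes that regulate the Mitf/Tfe factors 4 were higher and 2 lower (13 and none with that scaling), and Rragd, a GTPase of the nutrient-sensing machinery around mTORC1, had the largest change at 2.98 ± 0.18 (SE, adjusted p = 3.61e-06), beside Mlst8 at 0.59, Lamtor1 at 0.27 and Rptor at -0.52. Of 19 autophagy genes none was higher and 9 were lower (none higher unadjusted, and none by edgeR or DESeq2), led by Atg16l1 at -0.70, Atg9a at -0.62, Ulk1 at -0.57 and Atg5 at -0.43, but 8 were higher and 1 lower once scaled by total reads. The 3 cystatins measured, inhibitors of cathepsins, were all higher in liver: Cstb at 1.12, Cst7 at 1.71 and Cst3 at 0.42.

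In LSEC, where 5.24% of all genes were higher and 2.86% lower, few of these passed. Among other hydrolases 1 of 26 was higher, Pla2g15 at 1.06 (adjusted p = 0.0213), and none lower (7 unadjusted, none by edgeR and 4 by DESeq2). Of the 19 other membrane genes Cd63 was higher at 1.68 (adjusted p = 0.00493), and Ctns and Tmem192 were lower at -0.55 and -0.60 but not with scaling by total reads, where none passed as lower (4 unadjusted). Of 15 other pump subunits Atp6v0d2 was higher, at 228.2 normalized reads on average in NASH LSEC against 3.81 in chow LSEC and a log2 fold change of 5.97 ± 0.81 (SE, adjusted p = 0.0118). None passed by limma among 12 delivery genes (2 unadjusted, none by edgeR and 1 by DESeq2), 19 regulators (8 unadjusted, none by edgeR and 4 by DESeq2), 19 autophagy genes (6 unadjusted, none by edgeR and 4 by DESeq2) and 3 cystatins (none unadjusted and none by edgeR or DESeq2). Rragd was at 1.95 there, with an adjusted p of 0.0711.

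**Figure D5:**
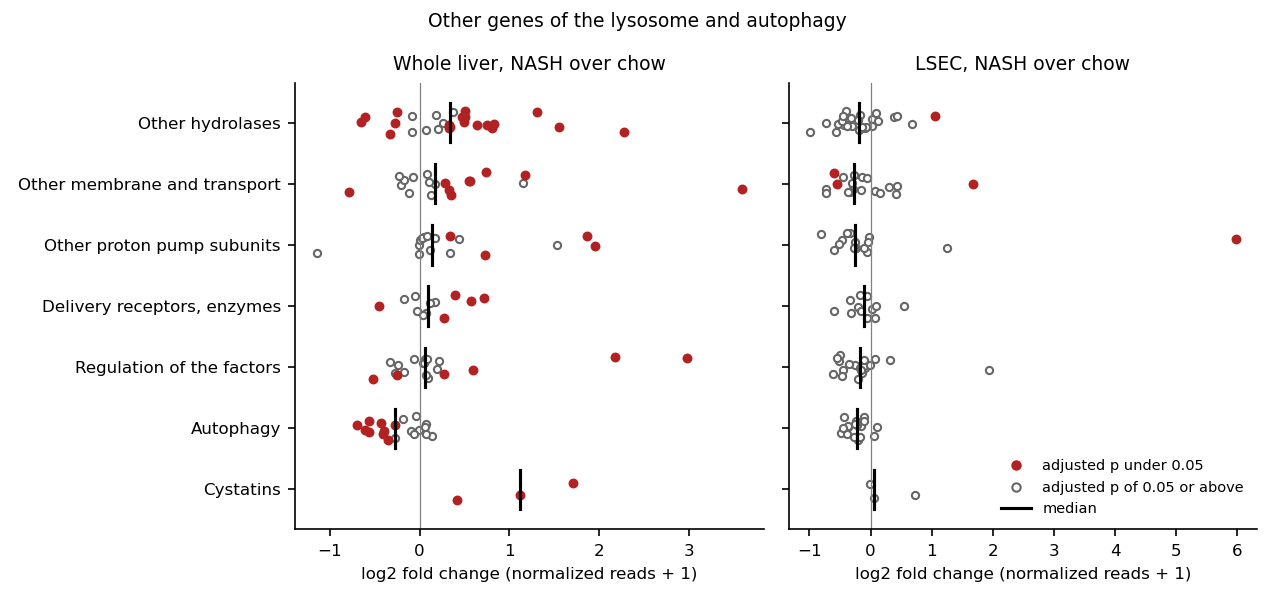
Log2 fold changes, NASH over chow, of the measured genes of 7 other lists in whole liver (left) and LSEC (right), with a black bar at each list's median. Red points had an adjusted p under 0.05. In liver the autophagy genes that passed all lie below 0 with the authors' scaling (8 higher and 1 lower once scaled by total reads), while in LSEC 5 points of the 7 lists passed.

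The authors' deposited table for liver has 24 of the 43 genes higher and 6 lower at an adjusted p under 0.05, against 23.8% and 20.9% of its genes. For LSEC the authors' deposited table has 11 higher and 7 lower, against 9.86% and 5.74%. All 29 genes called in liver and all 12 called in LSEC by limma are also called in the authors' deposited table. It adds Ctsc in liver, and in LSEC it adds Ctsb, Ctsh and Atp6v1b2 as higher and Naglu, Mcoln1 and Atp6ap1 as lower.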

How the data were processed

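RNA-seq libraries of whole liver and of LSEC, 3 per diet and tissue, were available as 2 tables. The deposited values are normalized reads, a signal made by the authors with DESeq2 size factors, beside their log2 fold changes and p-values, per the file headers and the submitters' processing notes, which also name FastQC, STAR, HTSeq, Seurat and mm10. No tool version is given in the sources used here. For liver, the kit named in the labels' protocols leaves strand unmarked, so reads of overlapping genes cannot be told apart. Whole reads were recovered by dividing each column by its smallest value above 0 (all values whole within 0.01).

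Per tissue, limma 3.58.1 (R 4.3.3, trended prior) tested NASH against chow on log2(normalized reads + 1), so a fold change understates that of low genes, with Benjamini-Hochberg adjustment over all genes and a threshold of 0.05. Liver minus LSEC was tested by setting the difference of log2 fold changes against its standard error with Welch-Satterthwaite degrees of freedom. The code was tested on simulated data. There limma recovered 76.2% of 101 genes changed by 1 log2 unit in liver and 37.0% of 92 in LSEC. The test of the difference recovered 49.0% of 386 genes simulated to differ. A missing call, above all in LSEC, therefore does not show an absence of change. Far fewer genes were changed in the simulation than were called in the data, so these shares do not give the power of the real tests. Alternatives were edgeR 4.0.16 and DESeq2 1.42.0 on recovered reads, other pseudocounts, scaling, filters and thresholds, and each library left out. Intervals of read ratios are exact and cover counting error only. LSEC columns carry no replicate number and were numbered by position, as names. Dates stood in place of 22 gene names and 2 names were repeated in either table, none of them among the 43. Library values are printed for genes called in LSEC, for the largest rises and all falls in liver, for genes whose effect differed between tissues and for the Mitf/Tfe factors; of other lists, up to 4 genes with the smallest adjusted p. Members and lists were chosen with earlier results of these data known. Exons are from GENCODE M21.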

Additional observations from a re-analysis of the deposited data

Results flagged for a closer look

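The effect of NASH differed between liver and LSEC by the test of the difference itself for 19 of the 43 genes. The difference in log2 fold change, liver minus LSEC, was 2.76 for Ctsk, 0.98 for Ctsd, 0.81 for Lgmn, -1.46 for Ctsc and -1.53 for Ctsh among the cathepsins. It was 0.84 for Hexa, 0.85 for Man2b1, 0.94 for Naglu and -0.48 for Gaa among the glycosidases. Among the lipid and other hydrolases it was 1.11 for Ppt1, 0.76 for Asah1, 0.71 for Tpp1, 0.62 for Psap, -0.49 for Gm2a and -1.95 for Acp5. Lamp1 and Cln3 of the membrane proteins had 0.66 and 0.67, and Atp6v0a1 and Atp6ap1 of the pump 0.60 and 0.77. None of the 3 Mitf/Tfe factors was called. Of all genes measured in both tissues, 19.5% differed. Markers of macrophages and of sinusoidal endothelium moved with diet in both tissues, with the sums given above, and their part in these differences was not tested.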

How the results depend on the processing

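In liver, scaling by total reads turned the direction of Ctsf (0.00034), Ctsh (0.034), Neu1 (0.23), Acp2 (0.40), Mcoln1 (0.22), Atp6v1h (0.22), Atp6v0a1 (0.30), Atp6v0d1 (0.26), Tfeb (0.18) and Tfe3 (0.32) on the log2 scale, and in LSEC that of Hexa (0.034), Neu1 (0.015), Ppt1 (0.019) and Atp6v1h (0.0026), by construction, since it moved the median of all genes up. It left 2 of the 43 lower in liver and 1 in LSEC. Acp2 in liver ranged from -0.069 to 0.071 over the fits without 1 library, above 0 without chow replicate 1 or NASH replicate 1. At a threshold of 0.01, 4960 genes were called in liver and 126 in LSEC, no lysosomal gene in LSEC in either direction by limma (0 higher and 0 lower, against 13 and 10 at an unadjusted p under 0.05), and 11 differed between tissues. DESeq2 called 2539 genes in LSEC, 7 of the 43 lower. Without a trend in the prior variance 750 genes were called in LSEC, 4 of the 43 higher and 0 lower (8 lower at an unadjusted p under 0.05). Over the fits without 1 library, 5863 to 7407 genes were called in liver, 19 to 24 of the 43 higher and 5 to 7 lower. In LSEC they gave 124 to 1171 genes, 0 to 8 of the 43 higher and 0 to 1 lower, and 13 to 22 genes differed between tissues. Same-numbered liver libraries had correlations of -0.01, -0.02 and 0.10, so the numbers were not taken as pairs. With the replicate block in liver 23 of the 43 were higher, 6 lower and 7447 genes called, with Ctsc gained (adjusted p = 0.00383) and Ctsa lost. LSEC columns carry no replicate numbers, so no block was fitted there. Unless stated, the cause was not tested. Depth limits Ctsj in chow, where at most 8 reads were counted in a library.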
